A study of Mus musculus with 4 samples.

Results

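The growth hormone and insulin-like growth factor (IGF) axis was followed in liver through 10 genes: the growth hormone receptor Ghr, the feedback inhibitor Socs2, the ligand Igf1, the acid-labile subunit Igfals, and the binding proteins Igfbp1, Igfbp2, Igfbp3, Igfbp4, Igfbp5 and Igfbp6. Its members were all array probes, control spots left out, whose gene name in the scanner files was one of these 10. They were 10 of 27975 gene names and 22 of the 41174 probes on the array, and 21 of those probes, at least 1 for each gene, were bright enough to be tested. Growth hormone from the pituitary binds its receptor on hepatocytes, where the kinase JAK2 activates the transcription factor STAT5, and STAT5 drives Igf1, Igfals and Socs2. Liver is the main source of IGF1 in blood, where most of it travels bound to a binding protein, chiefly IGFBP3, together with the acid-labile subunit. The other binding proteins carry IGFs in smaller complexes or hold them near the cells that make them, and Igfbp5 and Igfbp6 are typical of fibroblasts, mesothelium and other non-parenchymal cells rather than of hepatocytes.

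The samples were livers of 2 LB1 mice and 2 control mice, all of them female and of strain BALBc and killed 20 days after inoculation in a study of a Lactobacillus from ostrich, body weight, gut bacteria and metabolism. The name LB1 is not spelled out in the labels, the titles call these mice "stuff", and nothing is said of what control mice were given. Each liver was hybridised to 1 array with 1 dye (Agilent 4x44K whole mouse genome, 60-base probes), and each title names a different mouse. The comparison asks how the liver transcripts of this axis differed between LB1 and control mice.

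The sequences below show what was read for the receptor and the ligand, and the promoters of a growth hormone target, of a hormone-regulated binding protein and of the pair of binding proteins that differed most. Probe sequences come from the scanner files, on build mm9. Capitals mark cysteine codons (TGT or TGC) in the only reading frame without a stop: 4 in the Igf1 probe, which reads the mature hormone, and 1 in the Ghr probe, which spans an intron.
Igf1, probe 2, chr10:87376418-87376477, plus strand: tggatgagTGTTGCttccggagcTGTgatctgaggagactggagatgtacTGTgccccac
Ghr, probe 3, chr15:3283509-3290961, minus strand: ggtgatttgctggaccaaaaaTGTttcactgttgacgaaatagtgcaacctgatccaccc
The promoter windows are the 150 bases before a start listed in RefSeq, build GRCm38.p6, and capitals mark a motif. Igfals has more than 1 such start, and its printed window lies inside the gene (chr17:24877844-24882011), before an internal start. The Igfals window that ends at the gene's first base (chr17:24877694-24877843) holds no motif.
Igfals, chr17:24878081-24878230, plus strand: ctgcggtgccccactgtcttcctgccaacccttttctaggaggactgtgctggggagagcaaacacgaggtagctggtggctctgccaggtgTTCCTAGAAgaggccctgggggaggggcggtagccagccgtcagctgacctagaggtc
Igfbp1, chr11:7197637-7197786, plus strand: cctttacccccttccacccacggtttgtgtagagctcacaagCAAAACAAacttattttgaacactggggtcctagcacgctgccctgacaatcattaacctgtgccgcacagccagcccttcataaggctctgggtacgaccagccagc
Igfbp5, chr1:72874866-72875015, minus strand: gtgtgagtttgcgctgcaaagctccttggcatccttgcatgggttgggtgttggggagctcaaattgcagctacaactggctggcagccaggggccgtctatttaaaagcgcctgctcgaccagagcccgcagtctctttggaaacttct
Igfbp6, chr15:102144036-102144185, plus strand: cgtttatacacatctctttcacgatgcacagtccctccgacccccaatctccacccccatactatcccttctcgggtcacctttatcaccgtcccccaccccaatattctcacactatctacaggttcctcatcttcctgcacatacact

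Promoter entries were given for 9 of the 10 members, 13 entries in all, and each was searched on both strands over 300 bases for TTCNNNGAA, the palindrome bound by STAT5, and for CAAAACAA, the core of the insulin response element. The STAT5 palindrome lay in 2 of the 13 entries, both of Igfals. In the window above it began 58 bases before the internal start, and in the other entry it lay outside the 150 bases. It occurs in 8.30% of all 32851 promoters of that table. The insulin response core lay in 1 entry, that of Igfbp1, 108 bases before the start, and occurs in 2.51% of all promoters. Neither set of letters lay in the Igfbp5 and Igfbp6 windows, which describes these windows only.

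The LB1 arrays were dimmer than the control arrays: the 75th percentile of processed signals came to 146.9 and 80.8 in LB1 mice 1 and 2, against 410.9 and 414.7 in control mice 1 and 2. Levels below are therefore log2 of the processed signal relative to that percentile of the same array, and carry no information on total RNA. All 9 hepatocyte markers on the array, Alb and Apoa1 among them, were well above background on all 4 arrays, as the label liver calls for. Of these, 7 were saturated on both control arrays, among them the 5 called higher, whose size is therefore not given. LB1 minus control differences were tested with limma over all 22969 tested probes with Benjamini-Hochberg adjustment, and a call is an adjusted p under 0.05. The median tested probe differed by 0.16 (log2). The p-values measure the spread between 2 livers a group, and in bulk tissue fewer cells of a type and less RNA per cell cannot be told apart.

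Of the 21 tested probes of the axis, 6 were higher in LB1 livers, against a background of 19.2% of all tested probes, and 1 was lower, against 13.2% (32.4% in either direction). As shares of the members these are 28.6% and 4.76%. The members' median difference was 0.97. The groups did not overlap at 14 member probes, while 76.1% of all tested probes did not overlap. Counts of calls over the whole axis were therefore not far from the background, and the sizes differed between the members. The 3 probes of Igfbp5 and Igfbp6 were called higher, by 4.39 to 4.84 (log2) with control signals below the floor raised to it. The floor is an array's lowest signal well above background. Igfbp5 probe 2 and Igfbp6 were tested because they were bright in LB1 livers, so their calls are no independent count. The 14 tested probes of Ghr, Igf1, Igfals, Igfbp1, Igfbp2 and Igfbp4, which hepatocytes express, lay between -1.49 and 2.15, with a median of -0.11, 2 higher, 1 lower and 11 not past the test. The 11 RefSeq probes among them lay between -1.49 and 1.14, with a median of -0.27, 1 higher, 1 lower and 9 not past the test.

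**Figure D1:**
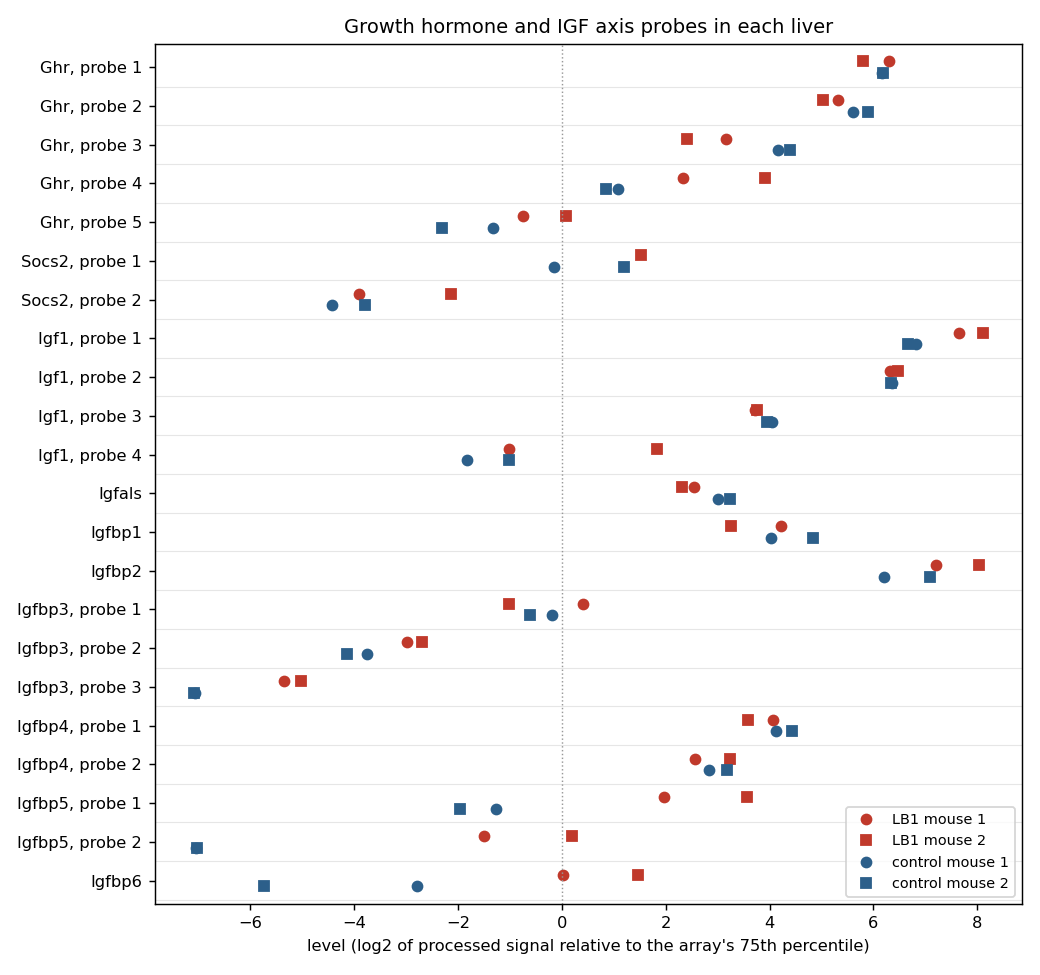
Level of every probe of the axis (log2 of the processed signal relative to the array's 75th percentile) in the 2 LB1 livers (red) and the 2 control livers (blue), with mouse 1 as circles and mouse 2 as squares. The Igfbp5 and Igfbp6 probes have the widest gaps between the groups, while Ghr probe 1, Igf1 probe 2 and both Igfbp4 probes lie close together.

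The receptor Ghr was read by 5 probes that did not move alike. Probe 1 (chr15:3268107-3268166) had levels of 6.30 and 5.80 in LB1 livers, against 6.16 and 6.18 in control livers. These groups overlapped, and the difference of -0.12 ± 0.26 (SE) did not pass the test (adjusted p = 0.741). Probe 2 (chr15:3277988-3278047) had 5.32 and 5.02 in LB1 livers, against 5.61 and 5.90 in control livers, a difference of -0.58 ± 0.24 (adjusted p = 0.120). Probes 2 and 3 were both designed on transcript variant 2 per the files.

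Probe 3 of Ghr, the one printed above, had levels of 3.17 and 2.42 in LB1 livers, against 4.17 and 4.40 in control livers. Both LB1 livers lay below both control livers, and the probe fell by 1.49 ± 0.32 (log2, SE; adjusted p = 0.0305), with -1.0 within slide 1 and -1.98 within slide 2. Of the 500 tested probes nearest to it in mean level, 97.8% had a higher difference, and of all tested probes 5.83% had a lower one. Without control mouse 1 its adjusted p was 0.109, and without control mouse 2 it was 0.169.

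The other Ghr probes, designed on RIKEN clones, went the opposite way. Probe 4 (chr15:3295320-3295379) had levels of 2.33 and 3.91 in LB1 livers, against 1.09 and 0.84 in control livers. Both LB1 livers were above both control livers, LB1 mouse 2 by more, and the probe was higher by 2.15 ± 0.55 (adjusted p = 0.0406). The difference was 1.36 without LB1 mouse 2 and 2.94 without LB1 mouse 1. Probe 4 passed the test in 5 of 6 scalings and background corrections, and not with quantile normalization (adjusted p = 0.0503). Probe 5 (chr15:3275624-3275683) had -0.76 and 0.09 in LB1 livers, against -1.33 and -2.30 in control livers, and its difference of 1.48 ± 0.46 did not pass the test (adjusted p = 0.0620). Within one gene, then, the test called 1 probe lower and 1 higher. Over the whole axis all 4 tested probes on RIKEN clones had differences above 0, with a median of 1.66, while the 15 RefSeq probes had a median of -0.09. What sets the clone probes apart from the RefSeq probes was not tested.

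Socs2, which STAT5 induces and which then damps receptor signalling, was read by 2 probes. Probe 1 (chr10:94875066-94875125) had a level of 1.53 in LB1 mouse 2, against -0.15 and 1.19 in control livers. The spot of LB1 mouse 1 was marked as an outlier by the scanner software and left out. The difference of 1.01 ± 0.65 rests on 1 LB1 liver and did not pass the test (adjusted p = 0.282). Probe 2 (chr10:94850747-94850806) was dim, with -3.90 and -2.14 in LB1 livers, against -4.43 and -3.79 in control livers. The groups overlapped and the difference was 1.09 ± 0.63 (adjusted p = 0.222).

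Igf1, the secreted ligand, was read by 4 probes that did not move alike. Probe 1 (chr10:87393516-87393575) was spotted 10 times on each array, and its mean processed signal was 29492 and 22322 in LB1 livers, against 46451 and 41890 in control livers. The 10 spots of an array ran from 27468 to 30813 in LB1 mouse 1 and from 20803 to 23637 in LB1 mouse 2, against 44061 to 47959 in control mouse 1 and 39704 to 43065 in control mouse 2. The signal itself was thus lower on both LB1 arrays, as it was for 14 member probes and 87.6% of all tested probes.

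After scaling, Igf1 probe 1 had levels of 7.65 and 8.11 in LB1 livers, against 6.82 and 6.66 in control livers, and was higher by 1.14 ± 0.26 (adjusted p = 0.0325). The 500 probes nearest in level had a median difference of 0.76, and 29.8% of them had a higher difference than this one. It passed the test in 3 of 6 scalings and background corrections, with 0.43 to 1.14, and without either control liver it did not pass (adjusted p = 0.143 without control mouse 1 and 0.207 without control mouse 2).

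Probe 2 of Igf1, in the coding sequence of the hormone as printed above, had 6.32 and 6.48 in LB1 livers, against 6.36 and 6.35 in control livers. The groups overlapped and the difference was 0.04 ± 0.21 (adjusted p = 0.881). Its sign turned in the other 5 scalings and background corrections, which gave -0.59 to -0.27. Probe 3 (chr10:87396567-87396626) had 3.71 and 3.75 in LB1 livers, against 4.05 and 3.96 in control livers, a difference of -0.27 ± 0.21 (adjusted p = 0.338). Probe 4 (chr10:87325382-87325441), on a RIKEN clone, had -1.01 and 1.83 in LB1 livers, against -1.82 and -1.03 in control livers, a difference of 1.83 ± 0.96 (adjusted p = 0.186). Of the 6 scalings and background corrections, probe 2 was called lower in 1, probe 3 lower in 2 and probe 4 higher in 1. No single direction for Igf1 was therefore measured by its 4 probes.

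Igfals, which holds IGF1 in the large complex of the blood, had levels of 2.55 and 2.31 in LB1 livers, against 3.00 and 3.23 in control livers (chr17:25018251-25018310). Both LB1 livers lay below both control livers, by 0.68 on average, yet the difference of -0.68 ± 0.23 missed the threshold (adjusted p = 0.0749). It was called lower under all 5 other scalings and background corrections, with -1.32 to -0.81. The window with the STAT5 palindrome printed above precedes an internal start of this gene, and no binding was measured here.

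Igfbp1 and Igfbp2 are binding proteins of hepatocytes, Igfbp1 known for its fall with insulin and its rise on fasting. Igfbp1 (chr11:7102442-7102501) had levels of 4.22 and 3.25 in LB1 livers, against 4.02 and 4.84 in control livers. The groups overlapped, the slides gave 0.20 and -1.59, and the difference was -0.70 ± 0.45 (adjusted p = 0.268). Igfbp2 (chr1:72898677-72898736) had 7.20 and 8.03 in LB1 livers, against 6.21 and 7.09 in control livers. Both LB1 livers were above both control livers, narrowly so for LB1 mouse 1 and control mouse 2. The difference was 0.97 ± 0.43 (adjusted p = 0.139), and with the slide as a block it passed the test (adjusted p = 0.0450), as slides 1 and 2 gave 0.99 and 0.94. The 500 probes nearest in level had a median of 0.70, so 0.27 of the difference lay above that of its neighbours.

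Igfbp3, the main carrier of IGF1 in blood and in rat liver a product of non-parenchymal cells, was read by 3 probes. Probe 1 (chr11:7106594-7106653) had levels of 0.41 and -1.02 in LB1 livers, against -0.20 and -0.62 in control livers. The groups overlapped, and the difference was 0.10 ± 0.51 (adjusted p = 0.887). Probe 2 (chr11:7108469-7109478, across 1010 bases of genome) was dim, with processed signals of 18.6 and 12.5 in LB1 livers, against 30.3 and 23.5 in control livers. Its scaled levels of -2.98 and -2.69 in LB1 livers lay above -3.76 and -4.14 in control livers, and it was higher by 1.11 ± 0.26 (adjusted p = 0.0336). It passed the test in 3 of 6 scalings and background corrections, and without LB1 mouse 2 its adjusted p was 0.0649.

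Probe 3 of Igfbp3 was not well above background on any array and was not tested. Its scaled difference was 1.88, and the 15154 probes that were dim on all arrays had the same median of 1.88, with 0.68 to 2.63 from the 5th to the 95th percentile. Igfbp3 probe 2, though low in signal, was well above background on all arrays, so that range is not its reference. The 500 tested probes nearest to Igfbp3 probe 2 in level had a median difference of 0.53, and 26.4% of them had a higher difference. Igfbp4, made in hepatocytes and elsewhere and an inhibitor of IGF action, did not pass the test at either probe. Probe 1 (chr11:98913334-98913393) had 4.06 and 3.58 in LB1 livers, against 4.13 and 4.42 in control livers, a difference of -0.46 ± 0.27 (adjusted p = 0.233). Probe 2 (chr11:98909591-98909650) had 2.57 and 3.24 in LB1 livers, against 2.82 and 3.17 in control livers, a difference of -0.09 ± 0.31 (adjusted p = 0.830).

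Igfbp5, a binding protein that also adheres to extracellular matrix, was higher in LB1 livers at both of its probes, though probe 2 was tested only through its LB1 signals. Probe 1 (chr1:72904829-72904888) had processed signals of 573 and 956 in LB1 livers, against 170 and 106 in control livers. Both LB1 livers were brighter than both control livers before any scaling, although the LB1 arrays were dimmer as a whole. The scaled levels were 1.96 and 3.57 in LB1 livers, against -1.27 and -1.97 in control livers, and the difference was 4.39 ± 0.59 (adjusted p = 0.0212), or 20.9-fold.

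Probe 2 of Igfbp5 (chr1:72907366-72907425) had processed signals of 51.6 and 92.6 in LB1 livers, against 3.11 and 3.17 in control livers. Neither control liver was well above background there. With control signals raised to the floor of their array, the level was 26.3-fold higher in LB1 livers. As measured, mean scaled levels were -0.66 in LB1 livers and -7.04 in control livers (adjusted p = 0.0201). The floor is no strict limit: on the array of control mouse 1 it was 10.1, while Igf2bp1 read 14.2 there without being well above background. The value with the floor was 14.5-fold without LB1 mouse 2, 47.5-fold without LB1 mouse 1 and 16.9-fold with the array median as the scale. The measured difference was smaller with normexp, 2.46 (log2), and with the series value table, 2.81. Within slide 1 the value with the floor was 14.2-fold and within slide 2 it was 48.5-fold. Probe 2 was tested only through its LB1 signals, so its direction adds no support to that of probe 1.

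Igfbp6, which binds IGF2 in preference to IGF1, had processed signals of 149 and 224 in LB1 livers, against 59.4 and 7.78 in control livers (chr15:101979763-101979823). The control livers were far apart, and only control mouse 1 was well above background. The scaled levels were 0.02 and 1.47 in LB1 livers, against -2.79 and -5.74 in control livers. Both LB1 livers were above both control livers, and the gene was called higher, by 5.01 ± 1.06 as measured (adjusted p = 0.0294). With control mouse 2 raised to the floor the difference was 4.84, with 2.81 within slide 1 and 6.88 within slide 2. Neither Igfbp6 nor Igfbp5 probe 2 is tested under the filter that asks for all 4 arrays, where Igfbp5 probe 1 was called higher.

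Of all tested probes, 0.192% had a larger difference than Igfbp5 probe 1, and among the 500 probes nearest in level 0.200% did. No rank is given for the other 2 probes, since control signals were not well above background there on 1 or both arrays. Of the tested probes 448, or 1.95%, were brighter on both LB1 arrays than on both control arrays before scaling, Igfbp5 probe 1 among them. Igfbp5 probe 2 and Igfbp6 were the only other members among them. As both entered the test only through the LB1 arrays, they add no support. Within slide 1 Igfbp5 probe 1 differed by 3.24, against -1.0 to 1.24 for all 14 tested probes of the hepatocyte-expressed members. Within slide 2 it differed by 5.54, against -1.98 to 3.07. The other 2 probes are left out here, as they were tested only through their LB1 signals. Igfbp5 probe 1 lay above the range on either slide, and no test of this gap between genes was made.

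**Figure D2:**
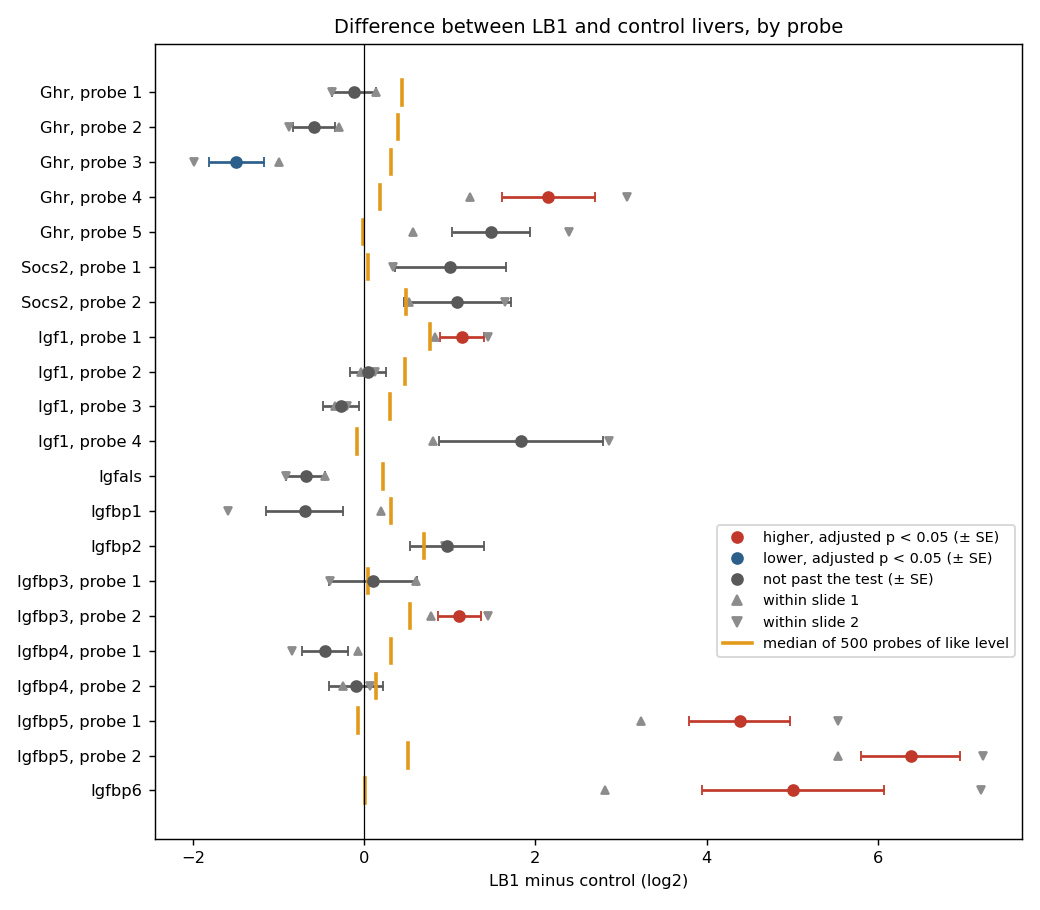
LB1 minus control difference (log2) of each tested probe of the axis with its SE, coloured by call, with the differences within slide 1 and slide 2 as triangles and the median of the 500 probes of like level as an orange bar. Igfbp5 and Igfbp6 lie between 4.39 and 6.38 as measured, far from their bars, while Igf1 probe 1 at 1.14 lies near its bar at 0.76.

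**Figure D3:**
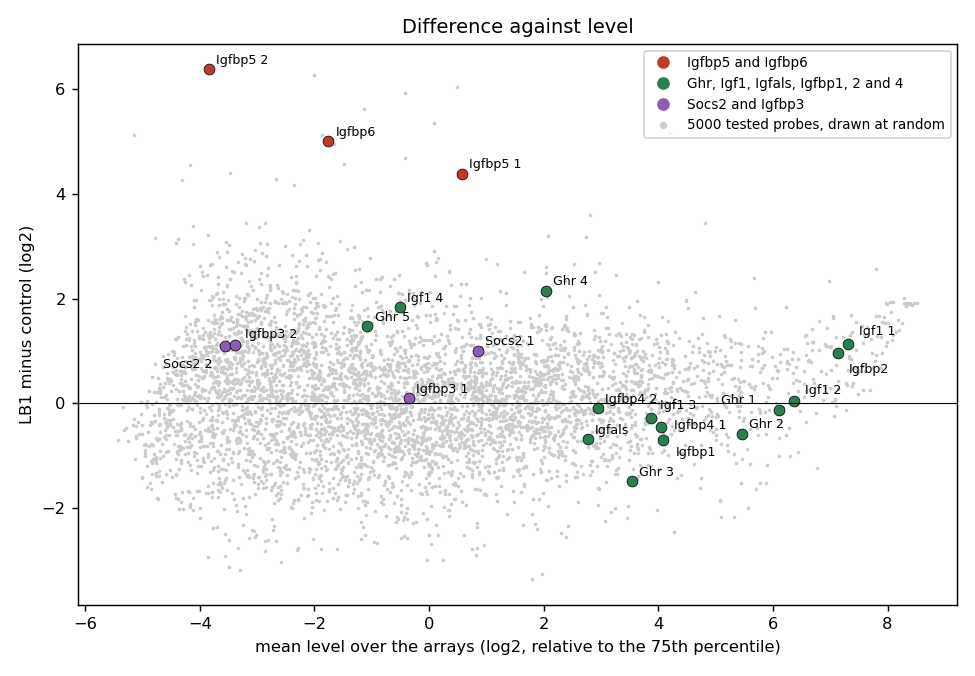
LB1 minus control difference (log2) against mean level over the arrays (log2) for the tested probes of the axis and, in grey, for 5000 tested probes drawn at random. The Igfbp5 and Igfbp6 probes lie above most of the cloud, with a few grey probes as high, and the brightest probes, Igf1 probe 1 and Igfbp2 among them, lie where the whole cloud bends upward.

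Some genes of the axis are neighbours in the genome, and their values can be set side by side. Igfbp2 and Igfbp5 lie 5590 bases apart on chromosome 1 with no gene between them in RefSeq (GRCm38.p6). Igfbp5 probe 1 was called higher, while Igfbp2 was not called. Igfbp5 probe 2, tested only through its LB1 signals, is left out here. Igfbp1 and Igfbp3 lie 3539 bases apart on chromosome 11, and Igfbp1 was not called, while of the 2 tested Igfbp3 probes 1 was called higher, by 1.11, and 1 was not, with 0.10. The difference between neighbours was not tested.

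The calls held differently when a liver was left out, which leaves 1 liver in a group, assumed to vary like the livers of the other group. Without LB1 mouse 1, 9 member probes were higher and 2 lower, and without LB1 mouse 2, 4 were higher and 1 lower. Without control mouse 1, only Igfbp5 probe 2 and Igfbp6 passed (adjusted p = 0.0412 for each), and without control mouse 2 the adjusted p of all 3 Igfbp5 and Igfbp6 probes was 0.118, in a fit that called 1 probe of the whole array. Igfbp6 did not pass without LB1 mouse 2 (adjusted p = 0.0876), and Igfbp5 probe 1 had an adjusted p of 0.0552 without control mouse 1. The measured differences of these probes stayed between 3.54 and 7.24 whichever liver was left out.

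Igfbp5 probe 1 and Ghr probe 3 passed the test under each scaling and background correction. So did Igfbp5 probe 2 and Igfbp6, but every setting kept the same filter, which these met only through the LB1 arrays. Across 6 scalings and background corrections the difference was 3.4 to 4.42 for Igfbp5 probe 1, 2.46 to 6.38 for Igfbp5 probe 2 and 2.94 to 5.01 for Igfbp6, and each passed the test in all 6. By the methods' t-test with 2-fold, unadjusted, neither Igfbp6 nor Ghr probe 3 nor Ghr probe 4 passed. Ghr probe 3 was lower in all 6, with -2.13 to -1.49. Ghr probe 2 was called lower in 5 of the 6, though not with the 75th percentile. Igfbp1 and Igfbp4 probe 1 were called lower in 3 each. These settings moved the median of all tested probes to between -0.47 and 0.44, and the share of higher among called probes was 59.3% with the 75th percentile, 38.7% with quantile normalization, 18.8% with the array median, 42.1% with cyclic loess, 71.0% with normexp and 74.0% with the table of the whole series. Relative to that median, Igfbp5 probe 1 was higher by 2.97 to 4.44, Igfbp6 by 2.50 to 4.98 and Ghr probe 3 lower, with -2.41 to -1.64.

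**Figure D4:**
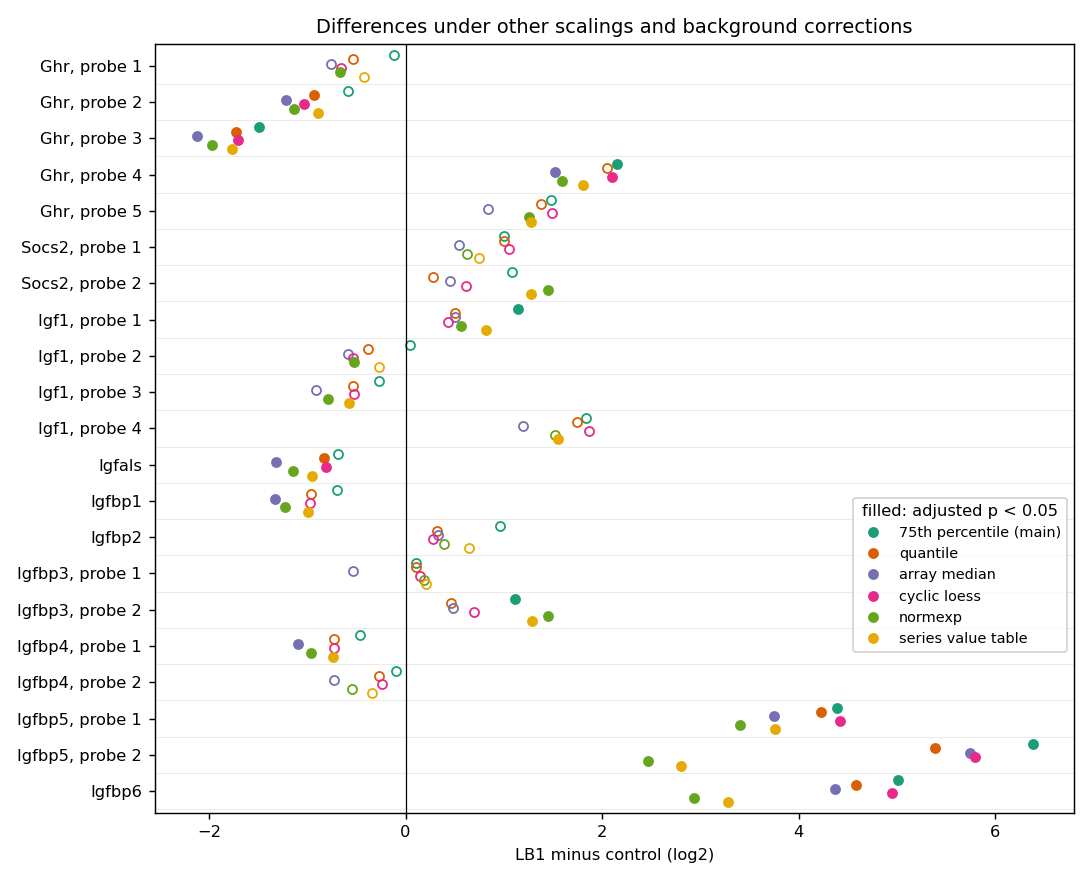
LB1 minus control difference (log2) of each tested probe of the axis under 6 scalings or background corrections, filled where the adjusted p was under 0.05 and open where it was not. Igfbp5, Igfbp6 and Ghr probe 3 are filled under all 6, and Igf1 probe 2 lies on both sides of 0. Igfbp5 probe 2 and Igfbp6 entered every setting only through their LB1 signals.

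Markers of mesothelium, a layer that covers the liver and is known to make Igfbp5 and Igfbp6, were followed in the same livers. Of 8 mesothelial markers 6 were tested and 5 were higher, beside 21.7% of all gene names higher and 9.78% lower. As 4 of the 6 were tested only because both LB1 arrays were bright there, that count is no support by itself; the 2 that were well above background on both control arrays, Msln and Gpm6a, were both higher. Msln, the surface protein mesothelin, had processed signals of 922 and 1669 in LB1 livers, against 222 and 23.0 in control livers, and was higher by 6.04 ± 1.19 (adjusted p = 0.0266). Rspo1, a secreted activator of Wnt signalling, had 477 and 848 in LB1 livers, against 135 and 11.6 in control livers, a measured difference of 5.93 ± 1.26 (adjusted p = 0.0297), with 1 control array well above background. The 6 tested mesothelial markers and Igfbp6 were higher in LB1 mouse 2 than in LB1 mouse 1 and lower in control mouse 2 than in control mouse 1. Some of these control values were not well above background. The same order was seen, among others, at Igfbp5 probe 1, Ghr probes 4 and 5, Igf1 probes 1 to 3 and Igfbp3 probe 2. It was also seen at the hepatocyte marker Hnf4a, the fibroblast markers Col1a1, Dcn and Col3a1 and the striated muscle marker Myl7. It is therefore not particular to mesothelium, and its share over all probes was not counted.

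The summed scaled level of the mesothelial list was 11.2 and 35.5 times the percentile in LB1 livers, against 1.25 and 0.168 in control livers. In LB1 livers Msln and Rspo1 made up most of that sum. Upk3b, another defining marker, differed by 4.71 and did not pass the test (adjusted p = 0.0556), though it did with the slide as a block (adjusted p = 0.0495). The other 2 markers of that list were not well above background on both arrays of either group and were not tested. Of the 8 stellate cell and fibroblast markers, Col1a1, Col3a1 and Pdgfrb were higher, by 1.68, 0.95 and 1.25, Col3a1 not with the slide as a block (adjusted p = 0.0510), and the other 5 did not pass, among them the stellate cell marker Lrat with 0.05. The summed level of that list was 96.5 and 109 in LB1 livers, against 79.0 and 73.8 in control livers. Dcn, which did not pass the test, made up most of that sum in every liver. The part of either cell type in the Igfbp5 and Igfbp6 differences was not tested.

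Other lists moved less evenly with the groups. Of the 6 sinusoidal endothelial and the 6 Kupffer cell markers, 1 in each list was lower, Tek with -1.57 and Vsig4 with -1.59, and the other 5 of each did not pass the test. Of 4 tested cholangiocyte markers Krt7 was higher by 4.69 and Spp1 was lower, with -1.53. Krt19 was called higher, by 4.26 as measured, but only 1 control array was well above background and it was tested only through the LB1 arrays. Mesothelium expresses Krt7 and Krt19 too, and Krt19 stands in both lists. Of 3 tested striated muscle markers Myl7 was higher by 5.65. Acta1, not well above background in control livers, was 6.86-fold higher with control signals raised to the floor. Of 2 tested pancreatic acinar markers Amy2a5 was lower, with -2.48, and neither of the 2 tested adipocyte markers passed.

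**Figure D5:**
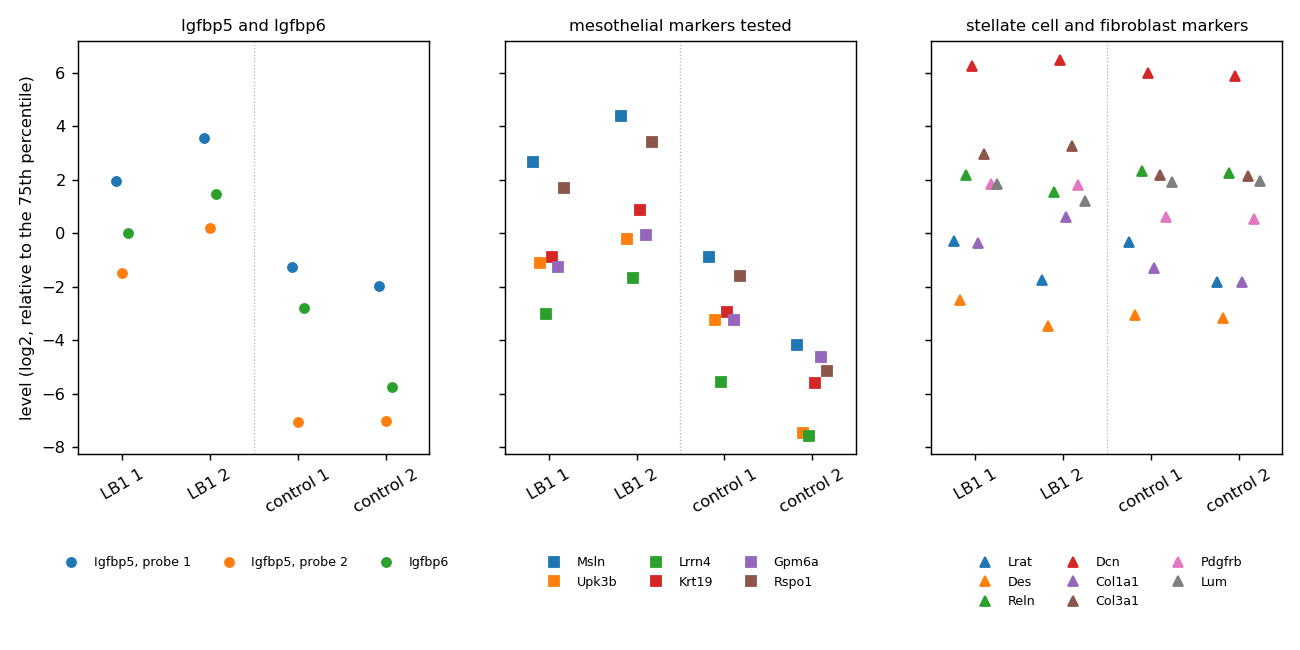
Levels (log2, with each array's 75th percentile at 0) of the Igfbp5 and Igfbp6 probes, of the 6 tested mesothelial markers and of the 8 stellate cell and fibroblast markers in each liver, LB1 livers to the left of control livers. The mesothelial markers lie highest in LB1 mouse 2 and lowest in control mouse 2, as do Igfbp6, Igfbp5 probe 1 and the fibroblast markers Col1a1, Dcn and Col3a1. Of the 8 stellate cell and fibroblast markers, 5 did not pass the test.

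The rest of the pathway was read with 38 further genes of growth hormone, IGF and insulin signalling, 37 of them matched on the array and 31 tested, each by its brightest probe. Of these 12 were higher and 2 lower, beside 21.7% of all gene names higher and 9.78% lower, with 17 not past the test and a median difference of 0.70, against a median of 0.29 over all gene names. Jak2, the kinase bound to the receptor, had processed signals of 72.3 and 62.0 in LB1 livers, against 558 and 754 in control livers. Both LB1 livers were below both control livers, and Jak2 fell by 1.35 ± 0.32 (adjusted p = 0.0350). Insr, the insulin receptor, was the other gene called lower, with -1.39 ± 0.31 (adjusted p = 0.0315), although the median of its 2 probes was -0.37.

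Signal transducers downstream of the receptor were called higher in part. Stat5a had processed signals of 982 and 699 in LB1 livers, against 870 and 937 in control livers, and was higher by 1.80 ± 0.24 after scaling (adjusted p = 0.0212). Stat5b, the main STAT5 of growth hormone signalling in mouse liver, differed by 0.70 ± 0.21 and did not pass the test (adjusted p = 0.0583), and the median of its 3 probes was -0.33. Stat3, an acute-phase transducer, was higher by 2.49 ± 0.39 (adjusted p = 0.0219), with processed signals of 9714 and 9994 in LB1 livers, against 5562 and 7896 in control livers.

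The suppressor Socs1 was higher by 1.99 ± 0.34 (adjusted p = 0.0232), with almost the same signals in all livers: 143 and 138 in LB1 livers, against 145 and 123 in control livers. Cish, a STAT5 target like Socs2, had 1054 and 2501 in LB1 livers, against 2470 and 1417 in control livers, and its difference of 1.72 ± 0.75 did not pass the test (adjusted p = 0.129). Of the ligand and receptor side, Igf1r was dim and higher by 1.01 ± 0.22 (adjusted p = 0.0312). Igf2, a fetal growth factor, was not well above background in LB1 livers, with 7.47 and 2.72 there against 14.5 and 10.1 in control livers, and did not pass the test (adjusted p = 0.274). Igf2bp3 was called higher by 1.26 ± 0.22 (adjusted p = 0.0236), while the median of its 3 probes was -0.08.

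Among STAT5 targets no common direction was measured. Igfals had -0.68, Socs2 had 1.01 and 1.09 at its probes and Cish had 1.72, none past the test, and Igf1 had 1 probe called higher and 3 not called. The receptor chain itself held 2 calls in the lower direction, Ghr probe 3 and Jak2, beside Ghr probe 4 and Stat5a in the higher direction.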

How the data were processed

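Spot intensity in the deposited scanner files is linear, background-subtracted and detrended within the array by Feature Extraction 10.5.1.1, with no scaling between arrays, per the file headers. The design text gives a different software version and scanner. A deposited whole-series table has the mean spot intensity of the same arrays as whole numbers (within 0.5), neither background-corrected nor scaled or centred. Per the labels of the series, the authors used the default scaling of GeneSpring and an unadjusted t-test with a 2-fold minimum.

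Outlier-flagged spots were dropped. Log2 processed signals were scaled to the 75th percentile of the 43379 non-control spots of their array, and repeat spots were averaged per probe. Probes entered the test when both arrays of LB1, of control or of both were well above background. The groups were compared by limma 3.58.1 (lmFit, eBayes; R 4.3.3), adjusting p-values by Benjamini-Hochberg over every tested probe. The fit was also run on simulated data with independent normal errors. Those data held no dimmer arrays, saturation or floor, so that run says nothing on these. Genes outside the axis are represented by their brightest probe. The 2 arrays a group limit the precision, and an exact permutation test of 2 against 2 cannot go below 0.333. Probe coordinates are those of the files (mm9). No genome or protein table was used, so exon and UTR positions are not given.

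A slide held 1 LB1 and 1 control array with the same replicate number, so number, slide and scan form 1 block per the file headers, and same-numbered arrays deviated from their group means with a correlation of 0.151. All 10 members were named with every probe. Of the pathway list, up to 4 genes per direction with the smallest adjusted p were named, with Jak2, Stat5a, Stat5b, Cish, Igf1r and Igf2 whether called or not, and up to 4 markers of each cell type list. The members and lists were chosen with earlier results of these data known.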

Additional observations from a re-analysis of the deposited data

How the results depend on the processing

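Counts over all tested probes (7437 called, 4407 higher and 3030 lower) moved widely: to 15990, 11347 and 4643 with normexp, 14447 called and 10689 higher with the table of the whole series, and 20683 called and 17556 higher with no filter on dim probes. Higher calls numbered 2515 with quantile normalization, 1654 with the array median (7125 lower) and 2902 with cyclic loess. The methods' t-test gave 4109 unadjusted with 2-fold (2228 higher, 1881 lower) and 0 after Benjamini-Hochberg. Leaving out an array gave 1 to 11028 called, 0 to 6010 higher and 1 to 5018 lower. Of the member probes, 6 higher and 1 lower in the main setting, 3 were higher with quantile normalization, 0 with the t-test after Benjamini-Hochberg, and 0 to 9 with an array left out. Lower member probes numbered 3 with quantile normalization, 5 with the array median, 3 with cyclic loess, 8 with normexp, 6 with the series table, 2 with the filter on all 4 arrays, 2 with trend and robust settings, 0 by either form of the t-test, and 0 to 2 with an array left out. Of the pathway genes, 12 higher and 2 lower, 4 were higher with the array median and 5 lower with normexp, 0 were higher by the adjusted t-test and 0 lower by either form of it, and 0 to 15 were higher and 0 to 2 lower with an array left out. Differences changed sign at Igf1 probe 2 (-0.38 quantile, -0.59 array median, -0.53 cyclic loess, -0.53 normexp, -0.27 series table) and at Igfbp3 probe 1 (-0.53 array median). With an array left out, the difference ran from -0.37 to 0.13 at Ghr probe 1, from -0.034 to 0.12 at Igf1 probe 2, from -0.61 to 0.82 at Igfbp3 probe 1 and from -0.43 to 0.24 at Igfbp4 probe 2. The cause of these shifts was not tested. With the replicate block 6958 probes were called, 7 member probes were higher and 1 lower, and 11 pathway genes were higher and 2 lower. The block changed the call of no member probe but Igfbp2, and of Igf2bp2 (lost) in the pathway list. The settings with 500 probes of like level and with control signals at the floor were chosen after seeing the data. Signals near background limit Igfbp3, Socs2 probe 2 and the control values of Igfbp5 probe 2 and Igfbp6.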
